A study of Mus musculus with 24 samples.

Results

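The genes described here are 10 mouse genes that make glutathione, use it, or belong to the response controlled by the transcription factor NRF2: Gclc, Gclm, Gsta3, Gsta4, Gstm1, Gpx2, Txnrd1, Srxn1, Nqo1 and Hmox1. They were taken by name and read from each probe set annotated to 1 of them alone. This gave 21 of the 34945 probe sets with a single gene, and 10 of the 18193 genes measured. Of the 10 genes, 4 had 1 probe set and 6 had several, and a gene is given by its probe set of highest mean signal unless another is named.

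Glutathione is a small thiol that cells use to reduce peroxides and to tag reactive compounds for export. Its first step of synthesis is run by an enzyme with a catalytic subunit (Gclc) and a modifier subunit (Gclm), and glutathione S-transferases and glutathione peroxidases then use it. NRF2, encoded by Nfe2l2, is marked for destruction by KEAP1, and escapes when KEAP1 is modified by oxidants or electrophiles. It then pairs with small MAF proteins and binds antioxidant response elements near genes of this set. In the lung, club cells of the airways are known to be rich in glutathione S-transferases, haem oxygenase is known as an enzyme of macrophages, and in human lung cancers changes of KEAP1 or NFE2L2 are known to raise such targets.

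The study hybridised total RNA of 24 mouse lung samples to Affymetrix expression arrays, 1 array per sample. The 14 tumours were visible nodules dissected by eye from mice that carried a pair of transgenes and had eaten a doxycycline diet for 3 to 6 months. They were 4 L858R tumours (labelled C/L858R), 5 L858R+T790M tumours (C/L+T) and 5 T790M tumours (C/T790M). L858R is an activating change in the kinase of the epidermal growth factor receptor (EGFR), while T790M is known in EGFR of human lung cancers that have become resistant to kinase inhibitors. The 10 normal lungs came from littermates that had no transgene or 1 of the pair, and they too were on doxycycline, so that all groups shared the drug. The L858R tumours and 5 of the normal lungs carried the strain label FVB mixed, and these lungs are called mixed-strain normals. The other tumours and the other 5 normal lungs, called FVB normals, carried the strain label FVB. The labels do not spell out the transgene written as C, and give neither sex nor age. They also do not say that each array came from its own mouse, so p-values reflect only how these arrays vary among themselves, part of which may be technical.

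All levels below are log2 signals, and all differences are differences of log2 signal, tumour minus normal lung, with their standard error (SE). A signal compares a gene between arrays, not with another gene. The threshold for calling a gene was an adjusted p of 0.05 in limma's fit over all 18193 genes (see the processing), and groups are said to overlap where their lowest and highest arrays do. Array medians lay between 7.21 and 7.34. The alveolar type 2 marker Sftpc was close to the top of the scale in every group, with means of 14.76, 14.85 and 14.78 in L858R, L858R+T790M and T790M tumours, against 14.71 in mixed-strain normals and 14.77 in FVB normals. The difference between the 3′ and 5′ control probe sets of Gapdh, a sign of RNA integrity, lay between -0.26 and -0.03 in tumours and between -0.31 and -0.08 in normal lungs. T790M replicates 4 and 2 had the lowest array weights of all arrays, 0.201 and 0.236, which mark arrays that fit their group poorly.

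Of the 10 genes, Hmox1 and Txnrd1 rose and Gsta3 fell in all 3 tumour groups. In L858R tumours 3 genes rose, Gclc, Txnrd1 and Hmox1, and 3 fell, Gclm, Gsta3 and Gstm1. These 6 of 10 stood beside 41.4% of all genes called in that comparison, 23.3% higher and 18.1% lower. In L858R+T790M tumours Txnrd1, Srxn1 and Hmox1 rose and Gsta3 and Gstm1 fell, 5 of 10 beside 36.2% of all genes, 20.2% higher and 16.1% lower. In T790M tumours Txnrd1 and Hmox1 rose and Gsta3 fell, 3 of 10 beside 39.8% of all genes, 21.9% higher and 17.9% lower. The L858R+T790M and T790M comparisons share their 5 FVB normals, so they are not independent of each other. The median difference of the 10 genes was 0.03, 0.06 and 0.40 in L858R, L858R+T790M and T790M tumours, beside medians over all genes of 0.05, 0.03 and 0.00. Read against these shares, the counts over 10 genes are near the background, so they are no result about the set, and the genes are given 1 by 1. The T790M count depended on the fit: with weights on all 24 arrays 9 of the 10 genes were called, all but Gpx2, with all 10 normal lungs as 1 group 5 were, and with T790M replicates 2 and 4 left out, a choice made after seeing the data, 4 were (Gclc, Gsta4, Txnrd1 and Hmox1). The share of all genes called was not counted for these other fits, so their counts are no result about the set either. With array weights, calls among the 90 other pathway genes described below rose too, from 44 to 54.

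**Figure D1:**
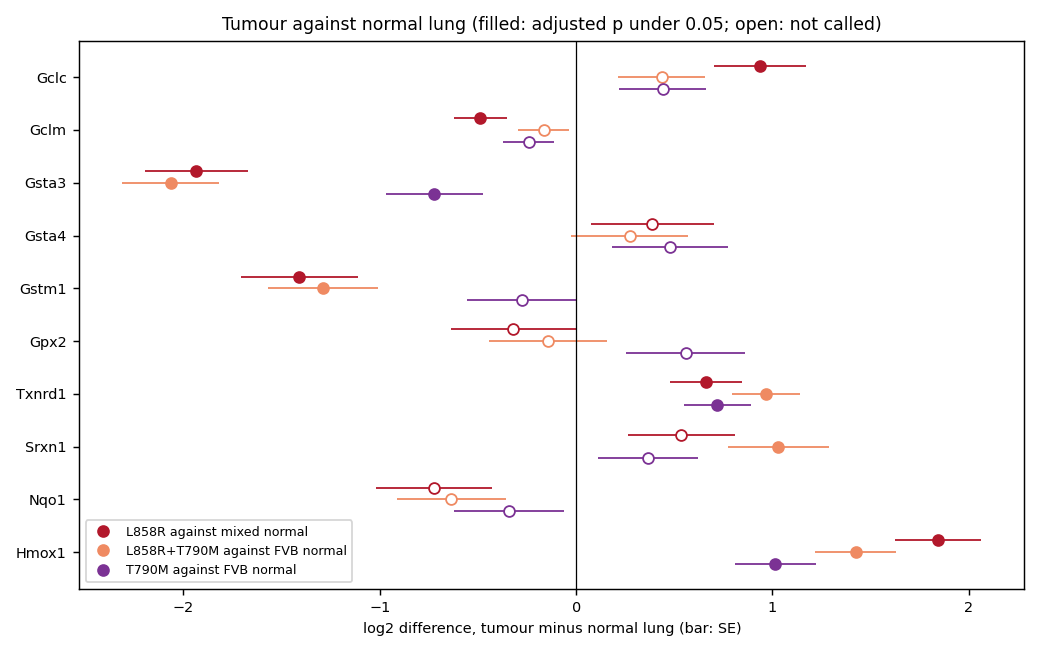
Difference of log2 signal between tumours and their normal lungs (horizontal axis, log2) for the 10 genes (vertical axis). Points are differences from the limma fit, bars are SE, filled points have an adjusted p under 0.05; Gsta3 and Gstm1 lie furthest to the left, at -2.07 and -1.41 at their lowest, and Hmox1 furthest to the right, at 1.84 at its highest.

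Groups that did not overlap at all are a plainer measure. In L858R tumours 4 of the 10 genes had every tumour array on one side of every mixed-strain normal (Gsta3, Gstm1, Txnrd1, Hmox1), beside 35.8% of all genes. In L858R+T790M tumours 5 did (the same 4 and Srxn1), beside 29.8% of all genes. In T790M tumours 2 did (Txnrd1 and Hmox1), again beside 29.8%.

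**Figure D2:**
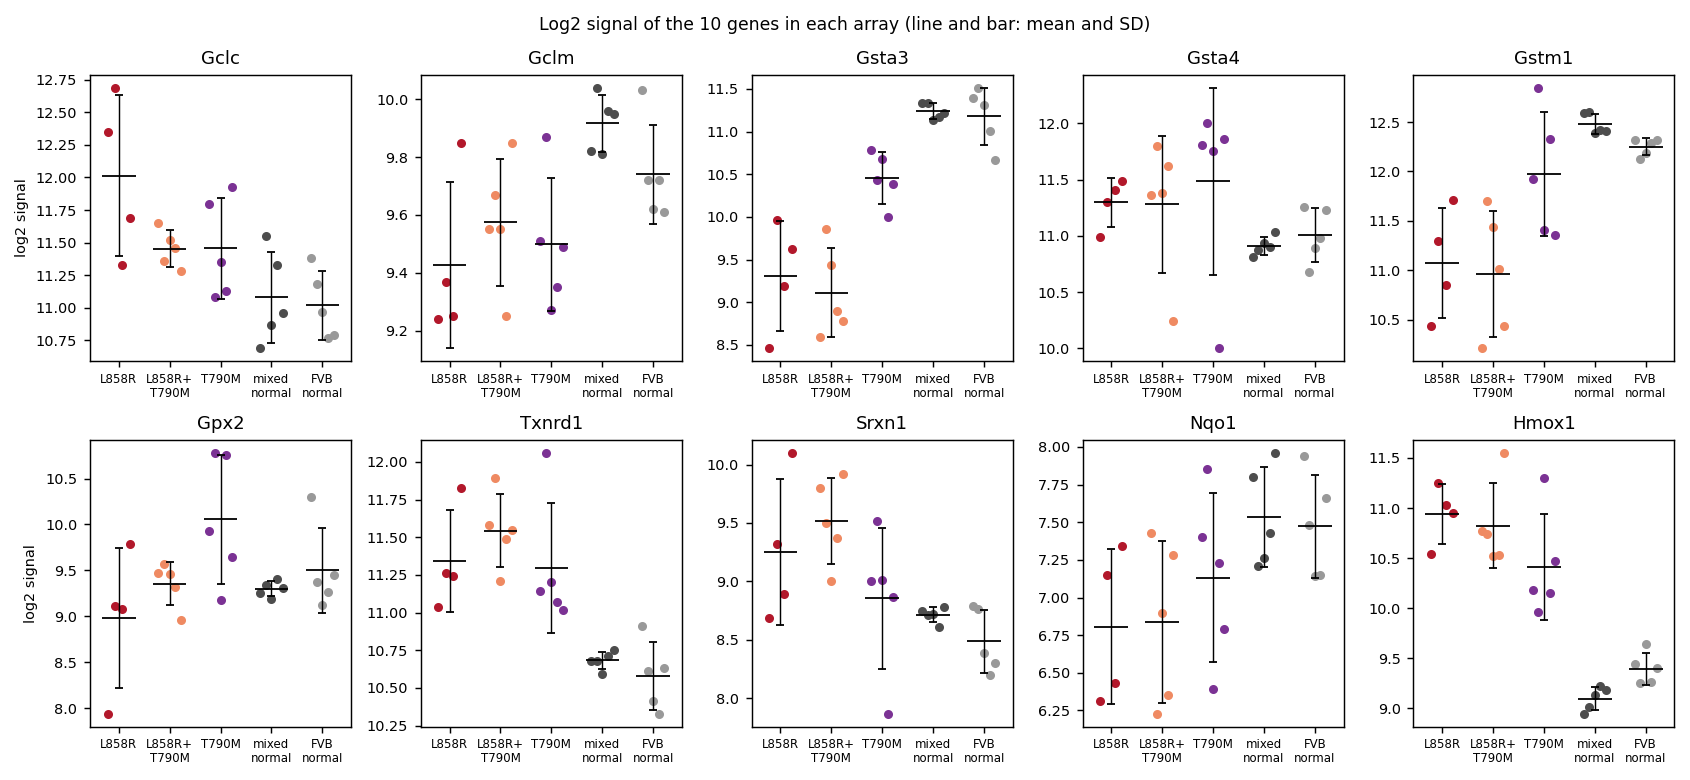
Log2 signal (vertical axes) of the 10 genes in each array, by group (horizontal axes): L858R, L858R+T790M and T790M tumours, then mixed-strain and FVB normals. Points are arrays, horizontal lines are group means and vertical bars are SD; for Txnrd1 and Hmox1 every tumour lies above the normal lungs, and for Gsta3 the T790M tumours, between 10.00 and 10.78, reach into the range of FVB normals.

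The stretch before the start of a gene, where antioxidant response elements can lie, was searched for the core motif TGACNNNGC on both strands, in the RefSeq promoter windows of assembly GRCm38.p6 (250 bases before to 50 after the start that the window uses, which can differ from the outermost start of the gene given with its coordinates). Of the 10 genes, 7 had a window there, and 4 of these held a match, in Gclm, Gsta3, Srxn1 and Txnrd1. The motif was in 12.4% of all 32851 windows and in a window of 14.0% of the 27025 genes that have one. The 3 matches that lie before the start that their window uses are shown because they belong to genes whose levels moved in at least 1 tumour group. The capitals mark the matched bases. All 3 are written on the plus strand, which is also the strand of these genes.
Gclm: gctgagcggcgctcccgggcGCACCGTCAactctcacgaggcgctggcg
Gsta3: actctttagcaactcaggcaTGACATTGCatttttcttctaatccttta
Txnrd1: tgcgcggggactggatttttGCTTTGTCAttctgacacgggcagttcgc
Distances are counted from the leftmost base of a match on the plus strand. The Gclm stretch is chr3:122245403-122245451, with the motif read on the opposite strand. The match lies 134 bases before the start that the window uses, at 122245557, and 64 bases before the outermost start of the gene. The Gsta3 stretch is chr1:21240444-21240492, with the motif on the strand of the gene. The match lies 121 bases before the start that the window uses, at 21240585, and 101 bases before the outermost start. The Txnrd1 stretch is chr10:82859094-82859142, with the motif on the opposite strand, 92 bases before 1 of the 3 starts listed, at 82859206, inside the span of the gene. In Srxn1 the match lay 28 bases after the start, which is also the outermost one. The windows of Nqo1, Gstm1 and Gpx2 held no match. Of the other pathway genes described below, 16 of 79 with a window held one. Of the genes with a match shown, Gsta3 fell, Txnrd1 rose, and Gclm fell in 1 tumour group. The motif is a description of these letters, and binding was not measured.

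Glutathione synthesis is the first step. Gclc (chromosome 9, 77754535 to 77794489 in GRCm38.p6), the catalytic subunit, rose in L858R tumours. Its levels there were 12.35, 12.69, 11.33 and 11.69, against 10.69, 11.55, 10.87, 11.33 and 10.96 in mixed-strain normals. L858R replicates 1, 2 and 4 stood above every normal lung, while replicate 3 lay inside the normal range. The difference was 0.94 ± 0.23 (adjusted p = 0.0028), or 1.91-fold. Its other probe set differed by 0.86 ± 0.19 and was called too. In L858R+T790M tumours Gclc was 11.65, 11.36, 11.52, 11.46 and 11.28, and in T790M tumours 11.80, 11.08, 11.35, 11.13 and 11.93, against 11.38, 11.18, 10.97, 10.77 and 10.79 in FVB normals. Both groups overlapped the normal lungs, with differences of 0.44 ± 0.22 in each (adjusted p = 0.135 and 0.122). With weights on all 24 arrays both were called, at 0.50 ± 0.20 and 0.62 ± 0.20 (adjusted p = 0.0437 and 0.0117). A fit to the groups compared called Gclc in L858R+T790M tumours (adjusted p = 0.0170). Leaving out T790M replicates 2 and 4 called it in T790M tumours (adjusted p = 0.0387). Leaving out 1 array called it in neither group.

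Gclm (chromosome 3, 122245487 to 122267215), the modifier subunit, went the other way from Gclc. It was 9.24, 9.37, 9.25 and 9.85 in L858R tumours, against 9.82, 10.04, 9.81, 9.96 and 9.95 in mixed-strain normals. In 3 of the 4 tumours it lay below every normal lung, and replicate 4 lay among them. The difference was -0.49 ± 0.14 (adjusted p = 0.0061), a 1.40-fold lower signal. The other Gclm probe set did not show this, with 0.14 ± 0.18 in L858R tumours (adjusted p = 0.563), so the fall of Gclm rests on 1 of its probe sets, and the median over both gave -0.17 (adjusted p = 0.363). Differences were -0.17 ± 0.13 in L858R+T790M and -0.24 ± 0.13 in T790M tumours, neither of them called. In these groups Gclm ranged over 9.25 to 9.85 and 9.27 to 9.87, against 9.61 to 10.03 in FVB normals.

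The glutathione S-transferases couple glutathione to reactive compounds. Gsta3 (chromosome 1, 21240565 to 21265575), of the alpha class, had the deepest fall of the 10 genes in L858R and L858R+T790M tumours. It was 8.46, 9.96, 9.19 and 9.62 in L858R tumours, against 11.34, 11.34, 11.14, 11.17 and 11.22 in mixed-strain normals. Every tumour lay over 1 log2 unit below every normal lung. The difference was -1.93 ± 0.26 (adjusted p = 4.62e-06), a 3.82-fold lower signal. The L858R+T790M tumours had 8.59, 9.86, 9.43, 8.90 and 8.78, against 11.39, 11.51, 11.31, 11.01 and 10.67 in FVB normals. The groups were again apart, by -2.07 ± 0.25 (adjusted p = 1.57e-06), 4.19-fold lower.

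Gsta3 was higher in T790M tumours than in L858R+T790M tumours, and called lower than in normal lungs. Their levels were 10.78, 10.43, 10.68, 10.00 and 10.39, all above the highest L858R+T790M tumour. Replicates 1 and 3 reached the lowest FVB normal, so that T790M tumours and normal lungs overlapped. The difference from FVB normals was -0.72 ± 0.25 (adjusted p = 0.023), 1.65-fold lower, and the call was lost without T790M replicate 4 (-0.61, adjusted p = 0.0685) or without FVB normal replicate 1 (-0.67, adjusted p = 0.0528) or replicate 2 (-0.64, adjusted p = 0.0625). Set directly against T790M tumours, L858R+T790M tumours were lower by -1.34 ± 0.25 (adjusted p = 0.0088), 2.54-fold. The other Gsta3 probe set gave differences of -2.12 ± 0.24, -2.14 ± 0.23 and -1.06 ± 0.23 in L858R, L858R+T790M and T790M tumours, and of -1.09 ± 0.23 between L858R+T790M and T790M tumours, each of them called.

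Gstm1 (chromosome 3, 108012250 to 108017973), of the mu class, had its lower levels in the same tumour groups. It was 10.43, 11.30, 10.85 and 11.71 in L858R tumours, against 12.59, 12.60, 12.39, 12.42 and 12.41 in mixed-strain normals. No tumour reached the normal range, and the difference was -1.41 ± 0.30 (adjusted p = 0.0006), 2.66-fold lower. The L858R+T790M tumours had 10.21, 11.70, 11.44, 11.01 and 10.44, against 12.32, 12.13, 12.19, 12.29 and 12.32 in FVB normals. These groups were apart as well, by -1.29 ± 0.28 (adjusted p = 0.00093), 2.45-fold lower.

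In T790M tumours Gstm1 was 11.92, 12.85, 11.41, 12.33 and 11.36, from well below the FVB normals to above all of them. T790M replicates 2 and 4 were the highest, and the difference of -0.28 ± 0.28 was not called (adjusted p = 0.467). It was called with weights on all 24 arrays (-0.65 ± 0.20, adjusted p = 0.0083). It was not called without T790M replicate 2 (-0.50, adjusted p = 0.156), without replicate 4 (-0.37, adjusted p = 0.364) or without both (-0.69 ± 0.28, adjusted p = 0.062). The 3 other Gstm1 probe sets were all called lower in L858R tumours (-1.42, -1.20 and -1.11) and in L858R+T790M tumours (-1.29, -1.10 and -0.90), and none was called in T790M tumours. The brightest probe set is of the type that can also bind similar sequences, and mu class genes are close copies of each other, so a share of the signal may come from its relatives. Between L858R+T790M and T790M tumours the Gstm1 difference was -1.01 ± 0.28 and was not called (adjusted p = 0.0676); it was called without L858R+T790M replicate 2 (-1.20, adjusted p = 0.0269), T790M replicate 3 (-1.16, adjusted p = 0.0449) or T790M replicate 5 (-1.17, adjusted p = 0.0449), 3 of the 10 arrays left out in turn, over which it lay between -1.20 and -0.80.

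Gsta4 (chromosome 9, 78191966 to 78209349), the alpha class enzyme known for removing aldehydes from oxidised lipids, was not called in any tumour group. It was 10.99, 11.30, 11.41 and 11.49 in L858R tumours, against 10.81, 10.87, 10.94, 10.90 and 11.03 in mixed-strain normals, with 3 of the 4 tumours above all normal lungs (0.39 ± 0.31, adjusted p = 0.343). In a fit to these groups alone the SE was 0.10 and the difference was called (adjusted p = 0.0106). It was called in 0 of the 9 fits that left out 1 array. Among L858R+T790M tumours Gsta4 was 11.36, 11.80, 11.38, 11.62 and 10.24, and among T790M tumours 11.81, 12.00, 11.75, 10.00 and 11.86, against 11.26, 10.68, 10.89, 10.98 and 11.23 in FVB normals. In both groups 4 of 5 tumours lay above every normal lung and 1 lay below every one. The differences were 0.27 ± 0.30 (adjusted p = 0.520) and 0.48 ± 0.30 (adjusted p = 0.215). Without T790M replicate 4 the T790M difference was 0.85 ± 0.21 and was called (adjusted p = 0.0029), and without T790M replicate 2 it was 0.35 (adjusted p = 0.409).

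Gpx2 (chromosome 12, 76792335 to 76795554), a selenium-dependent glutathione peroxidase of epithelia, was not called in any tumour group. Its lowest, median and highest levels were 7.94, 9.10 and 9.79 in L858R tumours, against 9.19, 9.31 and 9.41 in mixed-strain normals. It spread over both sides of the normal range, with a difference of -0.32 ± 0.32 (adjusted p = 0.450). It ran from 8.96 to 9.57 in L858R+T790M tumours and from 9.18 to 10.78 in T790M tumours, against 9.12 to 10.30 in FVB normals. The differences were -0.14 ± 0.30 and 0.56 ± 0.30 (adjusted p = 0.760 and 0.151). T790M replicates 2 and 4 were highest, at 10.78 and 10.76, and T790M replicate 3 was lowest, at 9.18; without replicate 3 the T790M difference was 0.78 ± 0.29 (adjusted p = 0.0418), and without replicate 2 it was 0.38 (adjusted p = 0.356).

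The thioredoxin system reduces disulphides with electrons from NADPH. Txnrd1 (chromosome 10, 82833951 to 82897724), the cytosolic thioredoxin reductase, rose in all 3 tumour groups with no overlap. It was 11.04, 11.26, 11.24 and 11.83 in L858R tumours, against 10.68, 10.68, 10.59, 10.71 and 10.75 in mixed-strain normals. Among L858R+T790M tumours Txnrd1 was 11.58, 11.89, 11.21, 11.49 and 11.55, and in T790M tumours 11.14, 12.06, 11.20, 11.07 and 11.02, against 10.91, 10.61, 10.41, 10.33 and 10.63 in FVB normals. Every tumour of every group lay above all normal lungs, and 4 of the T790M tumours lay close together at the lower end. The differences were 0.66 ± 0.18 (adjusted p = 0.0059), 0.97 ± 0.17 (adjusted p = 0.00014) and 0.72 ± 0.17 (adjusted p = 0.0020), which are 1.58-, 1.95- and 1.65-fold. Its 2 other probe sets were called higher in each group, with differences between 0.34 and 0.89.

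Srxn1 (chromosome 2, 152105524 to 152111376), sulfiredoxin, which restores over-oxidised peroxiredoxins, rose in L858R+T790M tumours. It was 9.80, 9.50, 9.00, 9.37 and 9.92 there, against 8.79, 8.76, 8.39, 8.20 and 8.30 in FVB normals, without overlap. The difference was 1.03 ± 0.26 (adjusted p = 0.0030), 2.04-fold. Of its 3 other probe sets, 2 were called higher (0.79 ± 0.23 and 0.92 ± 0.21) and 1 was not (-0.06 ± 0.09), and the median over all 4 gave 0.37 (adjusted p = 0.0605). In T790M tumours it was 9.00, 9.52, 9.01, 7.87 and 8.87, with 4 above every FVB normal and replicate 4 below every one. That difference, 0.37 ± 0.26, was not called (adjusted p = 0.274), and without replicate 4 it was 0.61 ± 0.23 (adjusted p = 0.0373), while without replicate 2 it was 0.20 ± 0.25 (adjusted p = 0.577). In L858R tumours it was 8.69, 9.32, 8.89 and 10.10, against 8.75, 8.71, 8.72, 8.61 and 8.78 in mixed-strain normals, with only replicate 1 inside the normal range. The difference of 0.54 ± 0.27 was not called (adjusted p = 0.120), and without replicate 1 it was 0.72 ± 0.28 (adjusted p = 0.0466), while without replicate 4 it was 0.25 (adjusted p = 0.471).

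Nqo1 (chromosome 8, 107388225 to 107403205), the quinone reductase often read as a marker of NRF2 activity, lay lower on average in each tumour group and was not called. It was 6.31, 7.15, 6.43 and 7.34 in L858R tumours, against 7.80, 7.21, 7.26, 7.43 and 7.96 in mixed-strain normals. In 3 of the 4 tumours it lay below all normal lungs. The difference was -0.72 ± 0.29 (adjusted p = 0.0534). Among L858R+T790M tumours Nqo1 was 7.43, 6.23, 6.90, 6.35 and 7.28, and in T790M tumours 7.40, 7.85, 6.39, 7.23 and 6.79, against 7.94, 7.48, 7.14, 7.15 and 7.66 in FVB normals. Of the 5 tumours, 3 and 2 lay below the normal range, and the differences were -0.64 ± 0.28 (adjusted p = 0.0794) and -0.34 ± 0.28 (adjusted p = 0.353). The L858R result lies at the threshold: it was called when dim genes were dropped before adjustment (adjusted p = 0.0459) and without L858R replicate 4 (-0.90 ± 0.31, adjusted p = 0.0269), and likewise when replicate 2 was left out of the mixed-strain normals (-0.81, adjusted p = 0.0479) or of the L858R tumours (-0.84, adjusted p = 0.0463). Without L858R replicate 1 it was -0.56 (adjusted p = 0.165). It was also called with array weights, in a fit to the groups compared and with all 10 normal lungs as 1 group (adjusted p = 0.0419, 0.0319 and 0.0286). In L858R+T790M tumours Nqo1 was called with all 10 normal lungs as 1 group (adjusted p = 0.0257) and without L858R+T790M replicate 1 (adjusted p = 0.0397). In T790M tumours it was called with array weights (adjusted p = 0.0399).

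Hmox1 (chromosome 8, 75093618 to 75100593), the inducible haem oxygenase that frees iron and biliverdin from haem, rose most of the 10 genes. It was 10.54, 11.25, 11.03 and 10.95 in L858R tumours, against 8.95, 9.01, 9.13, 9.22 and 9.18 in mixed-strain normals. The lowest tumour stood more than 1 log2 unit above the highest normal lung, and the difference was 1.84 ± 0.22 (adjusted p = 1.1e-06), 3.59-fold. Among L858R+T790M tumours Hmox1 was 10.77, 10.74, 10.52, 10.53 and 11.55, and in T790M tumours 10.18, 9.96, 11.30, 10.15 and 10.47, against 9.44, 9.25, 9.64, 9.26 and 9.40 in FVB normals. No tumour reached down to a normal lung. The differences were 1.42 ± 0.21 (adjusted p = 1.54e-05) and 1.01 ± 0.21 (adjusted p = 0.00049), 2.68- and 2.02-fold.

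Cell type markers moved along with these genes, and in a piece of tissue a smaller number of cells of a type and less RNA per cell cannot be told apart. Of 12 club cell markers 7, 9 and 6 were called lower in L858R, L858R+T790M and T790M tumours, and none higher. Their summed signal (log2 of the sum) lay between 15.28 and 15.88 in L858R tumours, against 16.84 to 17.13 in mixed-strain normals. It lay between 14.47 and 15.93 in L858R+T790M and between 14.70 and 16.52 in T790M tumours, against 16.81 to 16.98 in FVB normals. Scgb1a1, the secretory protein that defines club cells, averaged 13.45, 13.09 and 13.59 in L858R, L858R+T790M and T790M tumours, against 14.64 in mixed-strain and 14.70 in FVB normals; the differences of -1.19 and -1.61 in L858R and L858R+T790M tumours were called, and that of -1.11 in T790M tumours was not (adjusted p = 0.051). The order of arrays within groups varied: T790M replicate 1 had the highest club cell sum of its group, 16.52, and the highest Gsta3, 10.78, while L858R+T790M replicate 2 had the lowest club cell sum, 14.47, and the highest Gsta3 of its group, 9.86, and L858R replicate 1 had the highest sum of its group, 15.88, and the lowest Gsta3, 8.46. All 9 ciliated cell markers were called lower in each tumour group, among them Foxj1 by -1.58, -1.47 and -1.20. The part of airway cells in the levels of Gsta3 and Gstm1 was not tested.

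Markers of lipid-associated and activated macrophages rose along with Hmox1 in each tumour group, while those of alveolar macrophages rose mainly in L858R tumours. Of 10 markers of lipid-associated and activated macrophages, 7, 6 and 6 were called higher in L858R, L858R+T790M and T790M tumours, and 1 lower in L858R tumours. Their summed signal lay between 15.27 and 15.64 in L858R tumours, against 14.85 to 14.99 in mixed-strain normals. It lay between 15.10 and 15.76 in L858R+T790M and between 14.99 and 15.50 in T790M tumours, against 14.86 to 14.99 in FVB normals. Gpnmb, a defining marker, averaged 11.90, 11.25 and 10.73 in L858R, L858R+T790M and T790M tumours, against 8.98 in mixed-strain and 9.01 in FVB normals. Of 10 alveolar macrophage markers 8, 2 and 1 were called higher and 0, 1 and 2 lower. Of all genes 23.3%, 20.2% and 21.9% were called higher and 18.1%, 16.1% and 17.9% lower. Marco, a scavenger receptor among these markers, differed by 3.42 ± 0.55 and 3.65 ± 0.52 in L858R and L858R+T790M tumours, both called. In T790M tumours it differed by 0.80 ± 0.52 (adjusted p = 0.240). L858R+T790M replicate 5 had both the highest macrophage sum, 15.76, and the highest Hmox1, 11.55, of all tumours, whereas T790M replicate 2, with the highest sum of its group, 15.50, had the lowest Hmox1, 9.96. The part of macrophages in the Hmox1 level was not tested.

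**Figure D3:**
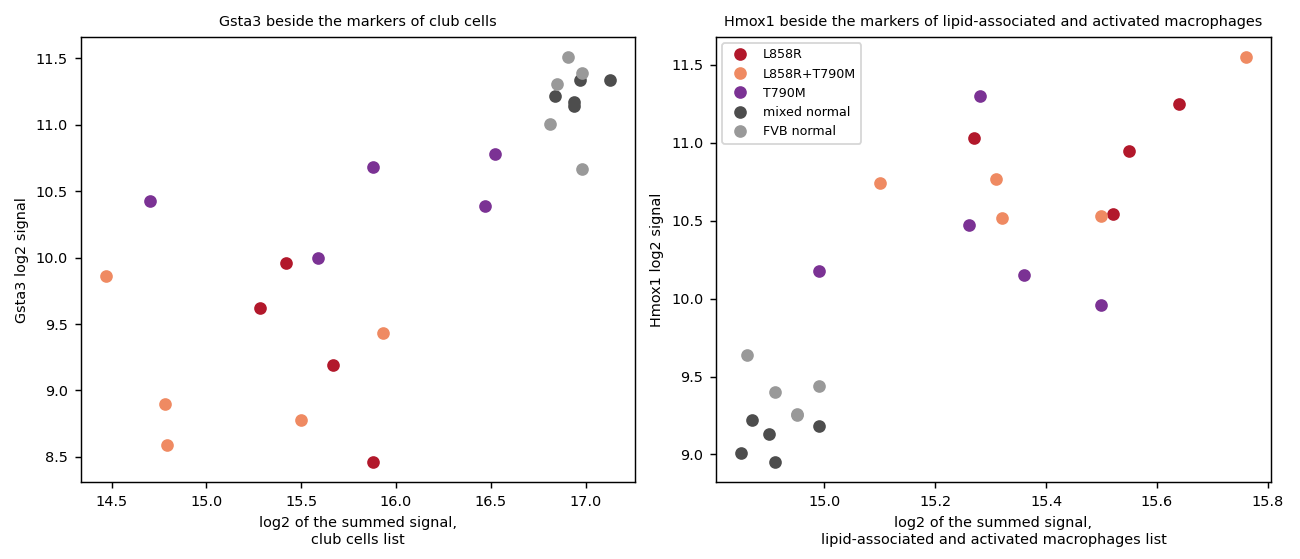
Left, Gsta3 log2 signal (vertical axis) against the summed signal of club cell markers (horizontal axis, log2 of the sum); right, Hmox1 against the sum of lipid-associated and activated macrophage markers. Points are the 24 arrays, coloured by group; tumours and normal lungs form separate clouds, and within the tumours Gsta3 is 9.86 at the lowest club cell sum, 14.47.

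The other marker lists describe the make-up of the nodules. Of 12 alveolar type 2 markers 10, 10 and 9 were called higher and none lower in L858R, L858R+T790M and T790M tumours. Of 10 alveolar type 1 markers 8, 6 and 9 were lower and 1, 1 and 0 higher, with Ager at -0.36 and -0.51 where called, in L858R and T790M tumours, and at -0.22 in L858R+T790M tumours. Endothelial markers were lower in 12, 12 and 11 of 12, with Pecam1 down by -2.66, -2.43 and -2.37, and fibroblast markers in 10, 8 and 8 of 11, though the collagen gene Col1a1 was not called (-0.43, 0.75 and 0.45). Of 4 red blood cell genes 0, 0 and 2 were lower, and the haemoglobin gene Hba-a1 was not called (0.17, 0.05 and -0.11). The Hba-a1 signal lay between 5.63 and 6.23 over all groups, below every array median, so little can be read from it.

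Other genes of the pathway give the setting for the 10. Of the 90 measured in 8 lists, 37 were called higher and 18 lower in L858R tumours, 39 and 14 in L858R+T790M tumours, and 31 and 13 in T790M tumours. The shares of all genes given above (23.3% and 18.1%, 20.2% and 16.1%, 21.9% and 17.9%) are the background to these counts. Most genes below are named only for the tumour groups where they ranked highest or lowest in their list. A group left unmentioned for a gene may have been called too.

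NRF2 protein and its activity were not measured, only the RNA of its gene, Nfe2l2, which rose in each group. It ranged over 12.40 to 12.68 in L858R tumours, against 11.93 to 12.14 in mixed-strain normals. It ranged over 12.48 to 12.93 in L858R+T790M and 12.36 to 12.54 in T790M tumours, against 11.92 to 12.19 in FVB normals. All tumours lay above all normal lungs, by 0.55 ± 0.09, 0.64 ± 0.08 and 0.39 ± 0.08 (adjusted p = 3.26e-05, 3.8e-06 and 0.000635). Keap1, the inhibitor of NRF2, was called in L858R+T790M tumours (0.37 ± 0.10, adjusted p = 0.0038) and was at 0.09 ± 0.10 in L858R and 0.16 ± 0.10 in T790M tumours. Yet its mean was 10.21 in both L858R and L858R+T790M tumours. The normal lungs differed, with a mean of 10.12 in mixed-strain normals (10.01 to 10.19) and 9.84 in FVB normals (9.77 to 9.92). Of the 12 genes for NRF2 and its regulators 4, 4 and 2 rose and 3, 1 and 3 fell in L858R, L858R+T790M and T790M tumours. The small MAF gene Maff rose by 1.21 and 0.75 in L858R and L858R+T790M tumours (0.34 in T790M tumours, not called), and Mafg by 0.28 in T790M tumours. Bach2, a repressor related to BACH1, fell by 1.06, 1.05 and 0.91, the related factor Nfe2l1 by 0.32 in L858R tumours, and Mafk by 0.51 in T790M tumours.

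Genes of glutathione synthesis, recycling and cystine uptake were called higher more often than lower, with 8, 9 and 7 of 15 called higher and 2, 3 and 2 lower in L858R, L858R+T790M and T790M tumours. Glrx, a glutaredoxin that takes electrons from glutathione, was higher by 1.86 ± 0.23, 1.86 ± 0.22 and 1.03 ± 0.22. Cth, which makes cysteine from cystathionine, was higher by 1.68 ± 0.26, 0.90 ± 0.24 and 1.56 ± 0.24. Oplah, which recycles oxoproline from glutathione breakdown, rose by 1.03 in T790M tumours, and Ggct, which makes that oxoproline, by 0.98 in L858R+T790M tumours. Gsr, glutathione reductase, rose in L858R and L858R+T790M tumours (0.78 ± 0.18 and 0.47 ± 0.17) and was at 0.09 ± 0.17 in T790M tumours. The cystine transporter Slc7a11 was not called (-0.07, 0.45 and 0.10), and its partner chain Slc3a2 fell by 0.55, 0.81 and 0.57. Chac1, which degrades glutathione, fell by 0.59 and 0.44 in L858R and L858R+T790M tumours, and Cbs by 0.25 in T790M tumours.

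Of 18 other glutathione S-transferase genes 6, 6 and 7 rose and 6, 4 and 2 fell. Gsta2 and Gstm2, of the same classes as Gsta3 and Gstm1, were the lowest in L858R and L858R+T790M tumours, with Gsta2 at -1.76 ± 0.37 and -2.06 ± 0.35 and Gstm2 at -1.63 ± 0.35 and -1.42 ± 0.33. In T790M tumours Gsta2 fell by 1.24 ± 0.35, Gsto2 fell by 0.35, and Gstm2 was at -0.35 ± 0.33 and not called. The microsomal transferase Mgst2 rose by 1.43, 1.65 and 2.42, Gstt3 by 1.55 in L858R tumours, and Gstt2 by 1.16 and 1.60 in L858R+T790M and T790M tumours. Of 7 other glutathione peroxidase genes 1, 2 and 0 rose and 1, 1 and 2 fell. Gpx3, the secreted plasma form, fell by 1.60, 0.82 and 1.49. Gpx1 rose by 0.28 and 0.29 in L858R and L858R+T790M tumours, Gpx4, which reduces lipid peroxides in membranes, rose by 0.29 in L858R+T790M tumours, and Gpx7 fell by 0.57 in T790M tumours.

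Thioredoxins and peroxiredoxins rose in 6 of 8 genes in each group, and 1, 0 and 0 fell. Prdx4, the peroxiredoxin of the endoplasmic reticulum, rose by 1.20, 1.21 and 1.37, Prdx3, that of mitochondria, by 0.92 in L858R and 0.88 in T790M tumours, and Txnrd3 by 0.72 in L858R+T790M tumours. Thioredoxin, Txn1, rose by 0.30 ± 0.10 and 0.26 ± 0.09 in L858R and L858R+T790M tumours and was at -0.02 ± 0.09 in T790M tumours. Txnip, which binds thioredoxin, fell by 0.46 in L858R tumours. NADPH-producing enzymes rose in 4, 3 and 3 of 5 genes, and none fell. Malic enzyme, Me1, was higher by 2.06 ± 0.23, 2.02 ± 0.22 and 1.77 ± 0.22. Pgd of the pentose phosphate pathway came next in L858R and L858R+T790M tumours, higher by 1.37 and 1.36. Idh1 came next in T790M tumours, higher by 0.87. G6pdx was not analysed here.

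Genes of haem and iron handling rose in 2, 3 and 1 of 6, and none fell. Hmox2, the constitutive haem oxygenase, rose by 0.67, 0.68 and 0.46, and the biliverdin reductases Blvra by 0.77 in L858R and Blvrb by 0.48 in L858R+T790M tumours. Other detoxification genes known as NRF2 targets were split, with 6, 6 and 5 of 19 higher and 5, 5 and 4 lower. Akr1b8, an aldo-keto reductase, rose by 1.72 ± 0.29, 2.26 ± 0.27 and 2.06 ± 0.27. Ptgr1, which reduces prostaglandins and unsaturated aldehydes, rose by 1.76 and 1.32 in L858R and L858R+T790M tumours. The exporter Abcc4 rose by 1.30, 1.22 and 1.39 in L858R, L858R+T790M and T790M tumours. Aldh3a1, an aldehyde dehydrogenase, was lower, at -1.54 ± 0.56 in L858R, -2.42 ± 0.53 in L858R+T790M and -2.36 ± 0.53 in T790M tumours. The extracellular superoxide dismutase Sod3 was lower too, at -2.77, -1.65 and -1.90, as was Pir, at -1.93 in L858R tumours.

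**Figure D4:**
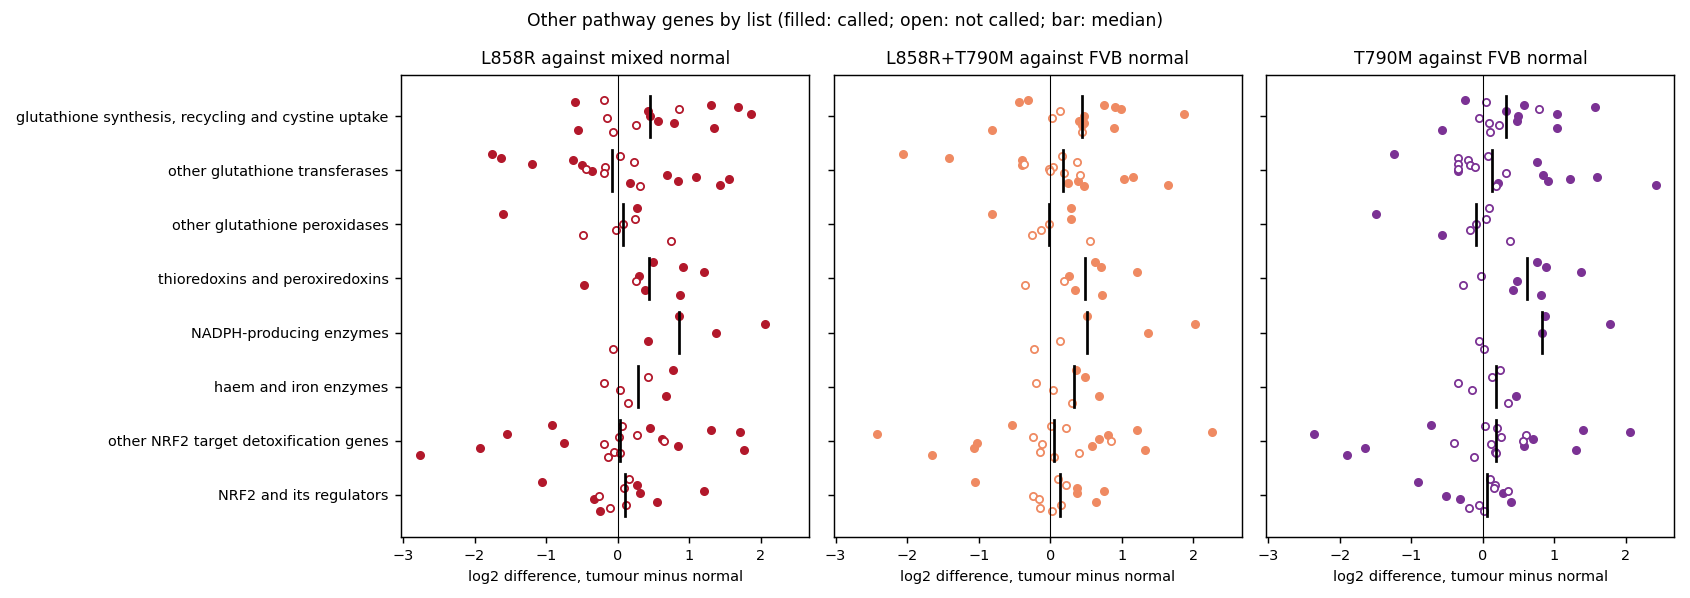
Difference of log2 signal, tumour minus normal lung, for the 90 other pathway genes by list and for each tumour group (log2 axis). Points are genes, filled where called, and vertical bars are list medians; the haem and iron enzymes and the NADPH-producing enzymes hold no gene called lower, and the detoxification genes spread from -2.77 (Sod3, L858R tumours) to 2.26 (Akr1b8, L858R+T790M tumours).

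Among tumours, the direct comparison of L858R+T790M with T790M tumours called 1 of the 10 genes, Gsta3, against 1.59% of all genes (0.764% higher, 0.824% lower). Gsta3 was also the only one of the 10 whose groups did not overlap, against 2.26% of all genes. The call was kept without each of the 10 arrays in turn, with differences between -1.53 and -1.21 and a highest adjusted p of 0.0404, and was lost in a fit to these 2 groups alone (adjusted p = 0.213). Srxn1 was at 0.66 ± 0.26 (adjusted p = 0.182), Gpx2 at -0.70 ± 0.30 (adjusted p = 0.233) and Hmox1 at 0.41 ± 0.21 (adjusted p = 0.319). Of the 90 other pathway genes, 4 were called. They are named here after their values were seen: Pgd (0.53) and Gsto2 (0.35) were higher, and Gstz1 (-0.53) and catalase, Cat (-0.49), lower in L858R+T790M than in T790M tumours. Without L858R+T790M replicate 1 or T790M replicate 4, 1 of the 90 was called. Of the 12 club cell markers 0 were called between these groups by limma, with 4 at an unadjusted p under 0.05, and Scgb1a1 differed by -0.50 ± 0.44.

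L858R tumours were compared with the other tumours after each group's own normal lungs had been subtracted. None of the 10 genes was called against L858R+T790M tumours, against 0.0715% of all genes, and 0 of the 10 had an unadjusted p under 0.05 in limma. None was called against T790M tumours either, against 0.418% of all genes, although 3 of the 10 had an unadjusted p under 0.05: Gsta3 (-1.21 ± 0.36, adjusted p = 0.124), Gstm1 (-1.13 ± 0.41, adjusted p = 0.201) and Hmox1 (0.83 ± 0.30, adjusted p = 0.206). Without the subtraction of normal lungs, Gsta3 (-1.15, adjusted p = 0.0144) and Gpx2 (-1.08, adjusted p = 0.0486) were called lower in L858R than in T790M tumours. These tumours also differ in strain label, so strain and genotype cannot be told apart in that direct difference. After the subtraction Gpx2 was at -0.88 ± 0.44 (adjusted p = 0.359).

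Mixed-strain and FVB normals differed in none of the 10 genes by limma's adjusted p, with 0 at an unadjusted p under 0.05, against 1.04% of all genes called. In a fit to the normal lungs alone, Gstm1 and Hmox1 were called (adjusted p = 0.0333 and 0.0402). These were also the 2 of 10 whose ranges did not overlap, against 10.4% of all genes: Gstm1 was 0.23 higher in mixed-strain normals, and Hmox1 0.30 lower. Both differences are smaller than the tumour differences of the same genes called above.

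Arrays within a group differed from each other in several of the 10 genes at once. T790M replicate 2 had the highest level of its group in 7 genes (Gclm, Gsta4, Gstm1, Gpx2, Txnrd1, Srxn1 and Nqo1) and the lowest in Gclc and Hmox1. It was also the highest in 42 of the 90 other pathway genes (46.7%), beside 25.0% of all genes. L858R replicate 4 was highest in the same 7 genes and in 34.4% of the pathway genes, beside 26.2% of all genes. L858R replicate 1 was lowest in 9 of the 10 genes, all but Gclc, and in 34.4% of the pathway genes, beside 30.8% of all genes. FVB normal replicate 1 was highest, or tied for highest, in 8 of the 10 genes and in 45.6% of the pathway genes, beside 22.7% of all genes. The largest range within a group was that of Gsta4 in T790M tumours, 2.00, against 0.58 in FVB normals.

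**Figure D5:**
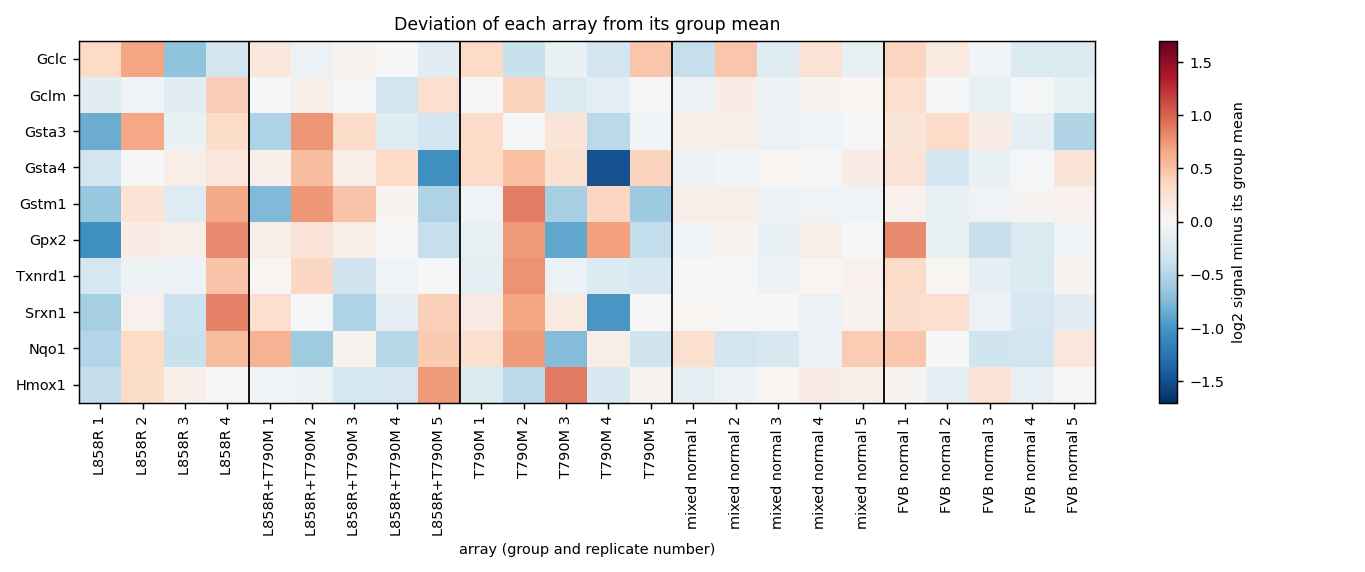
Deviation of each array from its group mean (colour, log2) for the 10 genes (rows), with arrays as columns grouped by tumour and normal group. T790M replicate 2 and L858R replicate 4 lie above their group mean in most genes and L858R replicate 1 below it in 9.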

How the data were processed

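The deposited table holds log2 probe set signals. The authors summarised them with RMA, per the submitters' processing notes, with a version and settings not given in the sources used here. Because the 24 columns had nearly the same distribution, no further scaling was applied. Arrays hold no counts, and precision was limited by 4 or 5 arrays a group.

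Each of 18193 genes was represented by its brightest probe set. Control probe sets (64) and those with several genes (932) or none (9160) were left out, and symbols were updated through the RefSeq table of GRCm38. limma 3.58.1 under R 4.3.3 fitted the 5 group means to all arrays, with 19 residual degrees of freedom and a mean-variance trend in eBayes. Two-sided p-values were adjusted over all genes of each comparison by the Benjamini-Hochberg method. The model was tested on simulated data. Alternatives were 2 scalings, 2 choices of probe sets, dropping 6064 dim genes, array weights, no trend, a replicate block, fits to the groups compared, all normals as 1 group, direct differences between tumours, adjusted p under 0.01 and leaving out each array. Leaving out both down-weighted T790M tumours was added after seeing the data.

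The members, the 8 pathway lists and the 9 cell type lists were chosen with earlier results of these data known. All 10 members are named. Of the other pathway genes, up to 2 called genes with the highest and up to 2 with the lowest difference are named per list and tumour group, and Nfe2l2, Keap1, Slc7a11, Gsr and Txn1 always; cell type lists are given as counts, with defining markers. Promoter windows are from RefSeq, matched by symbol.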

Additional observations from a re-analysis of the deposited data

Results flagged for a closer look

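In 50 sets of arrays (10 genes in 5 groups), 6 held an array that stood far from the rest of its group. Chance alone gives about 1 in 20 for a single set. The genes were read from the same arrays, so the sets are not independent and the count cannot be judged against that rate. Gsta4 was 10.00 in T790M replicate 4, while the other T790M tumours lay between 11.75 and 12.00. Gsta4 was 10.24 in L858R+T790M replicate 5, while the others of that group lay between 11.36 and 11.80. Hmox1 was 11.55 in the same L858R+T790M replicate 5, above the 10.52 to 10.77 of the others. Txnrd1 was 12.06 in T790M replicate 2, above the 11.02 to 11.20 of the others. FVB normal replicate 1 stood high in Gclm, at 10.03 beside 9.61 to 9.72, and in Gpx2, at 10.30 beside 9.12 to 9.45. Of these arrays, T790M replicates 2 and 4 also had the lowest array weights.

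Between tumour groups, the Gsta3 effect differed by a direct test: L858R+T790M tumours were lower than T790M tumours by a log2 difference of -1.34.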

How the results depend on the processing

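For the 10 genes in 7 comparisons, no result turned its direction while called. Over all fits that left out 1 array, results called with all arrays kept their call in 141 cases and lost it in 3, all of Gsta3 in T790M tumours, and results not called stayed so in 714 and were called in 12. Over the other alternatives, calls were kept in 163 cases and lost in 5, and results not called stayed so in 587 and were called in 25. The calls lost were Gclm in L858R and Srxn1 in L858R+T790M tumours with the median over probe sets, Gsta3 in T790M tumours at an adjusted p under 0.01 and without replicates 2 and 4 (-0.56, adjusted p = 0.137), and Gsta3 between L858R+T790M and T790M tumours in a fit to those groups.

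Counts of the 10 genes called moved by over 1.5 times as follows. In T790M tumours 9 were called with array weights and 5 with all 10 normal lungs as 1 group, against 3. Between L858R+T790M and T790M tumours 0 were called in the fit to those groups, against 1. Between L858R and T790M tumours 1 was called with array weights and 2 by the direct difference, against 0. Between the normal lungs 2 were called in the fit to them alone, against 0. The share of all genes called was not counted for these fits, so the counts are no result about the set.

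Counts of the 90 other pathway genes moved in these cases. In L858R+T790M tumours 35 passed an adjusted p under 0.01, against 53 at 0.05. Between L858R+T790M and T790M tumours 9 were called with array weights, 2 with the replicate block, 1 at 0.01 and 0 in the fit to those groups, against 4. Between L858R and T790M tumours 1 was called with array weights, 4 by the direct difference and 1 without both down-weighted T790M tumours, and between L858R and L858R+T790M tumours 2 by the direct difference, against 0. Between the normal lungs 12 were called with array weights, 9 in the fit to them alone and 1 with the median over probe sets, against 0. The cause was not tested.

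Leaving out 1 array gave 6 to 7, 5 to 6 and 2 to 4 of the 10 genes in L858R, L858R+T790M and T790M tumours, and 1 to 2 between L858R+T790M and T790M tumours. Of the other pathway genes it gave 49 to 55, 41 to 55, 41 to 47 and 1 to 6, and for the strain-adjusted and normal comparisons 0. With the replicate block 6, 5 and 3 of the 10 genes were called in L858R, L858R+T790M and T790M tumours, as without it. Of 46 pairs of arrays with the same number, 11 had deviations that correlated over 0.1 (range -0.28 to 0.44). Between L858R+T790M and T790M tumours 4 of 5 did, with replicate 1 at 0.0029, and between T790M tumours and FVB normals 3 of 5. In no pair of groups did every pair, so the numbers were not taken to pair the samples.

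Low signals limit what the arrays can show, such as Slc7a11 (5.29 to 6.79) and Hba-a1 (5.63 to 6.23), beside array medians of 7.21 to 7.34. Nqo1 had the lowest mean signal of the 10 genes, at percentile 34.6 of all genes. Each call rests on 4 or 5 arrays a group.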
